A study of Arabidopsis thaliana with 4 samples.

Results

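The transcripts described here are those of the mitochondrial genome of Arabidopsis thaliana, measured by RNA sequencing in leaves. They were taken as every locus whose identifier starts with ATMG and whose counts, summed over 12 libraries, reached 30. The rule gave 79 members of 152 ATMG loci, among 32982 loci in all. The members drew 98431 counts, and the 73 ATMG loci below the rule drew 310 counts together, 27 of them having none. Just inside the rule lay ATMG00290 and ATMG01320 with 30 counts each, ATMG01400 with 34 and ATMG01110 with 39. Just outside it lay ATMG00540 and ATMG00450 with 23 counts each, ATMG00285 with 21 and ATMG00730 with 20.

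The study compared leaves exposed to a mitochondrial stress, called local, with distant leaves, called systemic, in 4 groups of 3 libraries. Dox local leaves received Dox at 25 um/g, a dose and a compound name given as the labels give them. Control local leaves received water. Dox systemic and control systemic leaves are the distant leaves of the Dox and the control arm, and no treatment of their own is listed for them. All plants were raised on agar medium with sucrose under long days. The sources used here do not give the age or genotype of the plants, the time from treatment to harvest, or whether the 3 libraries of a group came from separate plants. A p-value therefore reflects no more than the variation among the 12 libraries, and that variation may be technical.

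Plant mitochondria keep a small genome of their own. It encodes a minority of the subunits of the respiratory complexes and of ATP synthase, part of the machinery that attaches haem to cytochrome c, some ribosomal proteins, and the ribosomal and transfer RNAs of the organelle. The remaining subunits come from nuclear genes, so each respiratory complex is built from the products of both genomes. Plant mitochondrial transcripts are mostly not polyadenylated, and a poly(A) tail marks many of them for decay. The libraries were made from purified mRNA, so the counts cover that portion of the mitochondrial RNA which passed the purification, and the size of that portion was not measured.

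Depth was even, at 18981328 to 21380652 counts per library. Within a group the libraries differed by more than counting error, since the chi-square statistic of a gene divided by its degrees of freedom had a median of 10.01 to 22.29 over all genes. The summed level of 4 leaf markers was 17400 to 30500 CPM (the CPM scale corrects counts for library size, here after TMM normalization, as for all levels below) in every library. Of these CAB3, which can share reads with related CAB genes, varied most, from 141 to 2128 CPM, with a log2 fold change of -1.45 (SE 0.67) in Dox local over control local and -1.42 (SE 0.67) in Dox systemic over control systemic leaves. Of 8 root markers, 2 had no counts and 5 stayed at or below 0.448 CPM, while PYK10 ranged from 1.80 to 248 CPM. PYK10 had a log2 fold change of -2.91 (SE 0.95) in Dox local over control local leaves and -1.82 (SE 0.92) in Dox systemic over control systemic leaves. Between leaf positions it had -2.16 (SE 0.93) in control systemic over control local leaves and -1.07 (SE 0.91) in Dox systemic over Dox local leaves. The 4 flower markers together reached 0.199 to 1.94 CPM, and PI, the only one of them tested, had 1.99 (SE 0.73) in Dox systemic over Dox local leaves. None of these markers passed the edgeR threshold, and their part in the results below was not tested.

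The names of the members come from an indirect source. The mitochondrial record of the RefSeq TAIR10.1 assembly carries no ATMG identifiers, but loci on chromosome 2 are annotated there by the ATMG protein they match best. In this way 23 members have a description, of which 6 read only "unknown protein", and 4 more are named as the source of a pseudogene. The other 52 members are named by locus alone, with no role from this source, and they hold 87.2% of the member counts. The described or pseudogene-matched members had a median summed count of 152, against 473 for those without such a nuclear locus.

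The described members fall into a few functions. ATP synthase, which makes ATP from the proton gradient, is represented by ATMG01080 (subunit 9, the proton-carrying ring), ATMG00480 (subunit 8 of the membrane part) and ATMG01190 (subunit 1 of the catalytic head). ATMG01090 is also described as ATP synthase 9, but the chromosome 2 locus that names it matched mitochondrial sequence over 59.3% of its length and no annotated gene there, whereas that of ATMG01080 matched atp9. ATMG01090 is therefore named by locus below. NADH dehydrogenase, the first respiratory complex, is represented by ATMG00990 (subunit 3), ATMG01275 (subunit 1, part A) and ATMG01320 (subunit 2, part B). ATMG01280 is described only as having a transmembrane domain like that of subunit II of cytochrome c oxidase, the terminal respiratory enzyme. The chromosome 2 locus that names it matched no annotated mitochondrial gene, and cox2 itself had no match on chromosome 2. ATMG00590 is described as a cytochrome b/b6 protein, although the chromosome 2 locus that names it matched mitochondrial sequence annotated as nad4. ATMG00180 and ATMG00960 belong to the assembly of cytochrome c. ATMG00290, ATMG00980 and ATMG00560 are ribosomal proteins S4, S12 and, by the mitochondrial sequence its copy matched, rpl2. ATMG00280 carries a domain of the large Rubisco chain, and ATMG01110 a viral-type RNA polymerase.

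These chromosome 2 loci are near-identical copies of mitochondrial DNA, so reads of one could be counted on the other. In a comparison of the TAIR10.1 sequences, 72.2% of the 367808 bases of the mitochondrial genome matched chromosome 2 at 99% identity or more over at least 500 bases. All 46 nuclear loci that name an ATMG locus lie there, with a median identity of 99.97% and a lowest of 99.72%. Of 33 mitochondrial protein genes in RefSeq, 24 were matched over more than 90% of their length. The 8 matched over less than 10% were cox1, cox2, ccmB, rps3, rpl16, nad9, nad4L and atp4. The sources used here do not say how the authors counted reads that map to both places.

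Which of a mitochondrial locus and its chromosome 2 locus had more counts differed from gene to gene, and where the reads of either came from was not tested. The 46 chromosome 2 loci drew 10579 counts. Among 23 members with such a locus, the nuclear loci drew more than the mitochondrial locus in 6, and among 22 loci below the rule they drew more in 17. ATMG01190, the ATP synthase subunit 1 locus, had 64 counts and its copy AT2G07698 had 1586. ATMG01090, by contrast, had 4600 counts and its copy AT2G07777 had 121. Some loci described as respiratory genes lie below the rule and had more counts on the chromosome 2 locus. The cytochrome c oxidase subunit 3 locus ATMG00730 had 20 counts against 221 on AT2G07687, and the apocytochrome b locus ATMG00220 had 2 counts against 165 on AT2G07727.

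**Figure D1:**
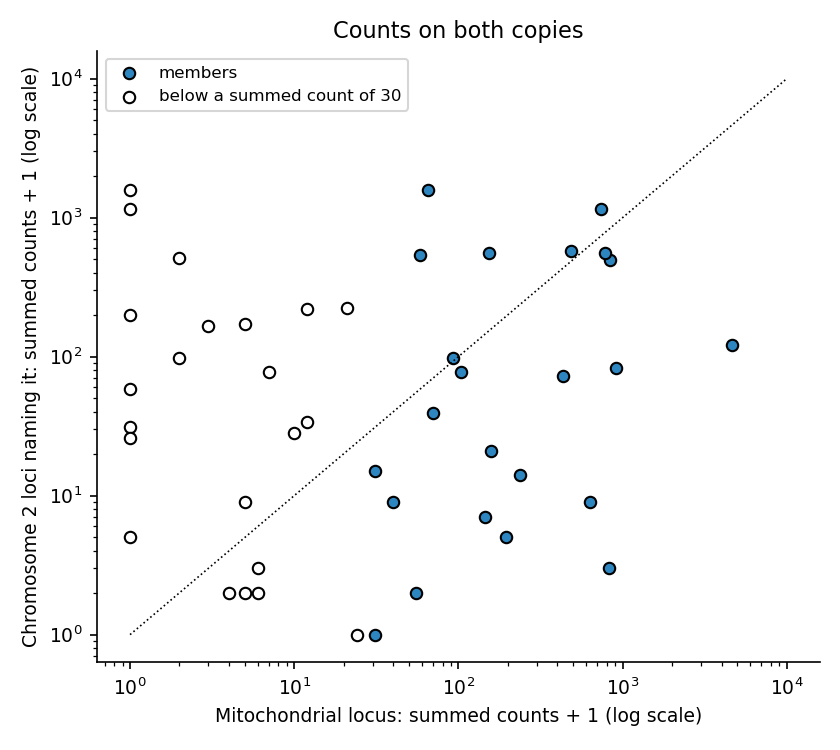
Counts summed over 12 libraries on each mitochondrial locus (x axis, plus 1, log scale) against the chromosome 2 loci that name it (y axis, plus 1, log scale), with members filled, loci below the rule open and equality dotted. The point farthest to the right is ATMG01090 with 4600 counts against 121, and the member with the most counts on its copy is ATMG01190 with 64 against 1586.

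The members took a very small share of every library. In Dox local libraries 1, 2 and 3 the share was 0.0331%, 0.0451% and 0.0551% of all counts, against 0.0384%, 0.0357% and 0.0968% in control local libraries. Dox systemic libraries gave 0.0167%, 0.0286% and 0.0242%, against 0.0455%, 0.0270% and 0.0466% in control systemic libraries. Exact 95% binomial intervals, which cover counting error only, were narrow beside these differences, for example 0.0954% to 0.0982% in control local library 3 and 0.0162% to 0.0173% in Dox systemic library 1. The highest library exceeded the lowest 5.79-fold. Control local library 3 stood apart from both other libraries of its group, and its 18843 member counts compare with 7743 and 7049 in those.

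Shares overlapped between Dox and control at both leaf positions. The mean share was 0.0444% ± 0.0110 in Dox local leaves and 0.0570% ± 0.0345 in control local leaves (SD, n = 3 each), a ratio of 0.780. Without control local library 3 the control local mean was 0.0371% and the ratio turned to 1.20. In systemic leaves it was 0.0232% ± 0.0060 with Dox and 0.0397% ± 0.0110 in controls (SD, n = 3 each), a ratio of 0.584, and the control systemic library 2 at 0.0270% lay among the Dox libraries. All 3 Dox systemic libraries lay below all 3 Dox local libraries, with a ratio of means of 0.522. Control systemic over control local leaves gave a ratio of 0.697 with overlap, and of 1.07 without control local library 3. In whole leaves, fewer mitochondria-rich cells, less mitochondrial RNA per cell and a smaller portion passing the mRNA purification cannot be told apart.

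The plastid-encoded loci, the other organelle genome of the leaf, ordered the libraries differently. They took 0.0348%, 0.0250% and 0.0273% of the counts in Dox local libraries, against 0.0210%, 0.0267% and 0.0296% in control local libraries. The values were 0.0263%, 0.0298% and 0.0273% in Dox systemic libraries, against 0.0454%, 0.0269% and 0.0252% in control systemic libraries. Control local library 3, the highest for mitochondrial counts, was 1 of several near 0.03% here. The chromosome 2 copies did follow the members: their share was 0.00181% in Dox systemic library 1 and 0.0107% in control local library 3, a range of 5.93-fold. Nuclear rows annotated as ribosomal RNA took 0.0155% to 0.0438% of a library and were at 0.0171% in control local library 3. Their share was higher in all Dox local than in all control local libraries, at a ratio of 1.38, and in all control systemic than in all control local libraries, at a ratio of 1.78. The part of these rows in the member values was not tested.

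**Figure D2:**
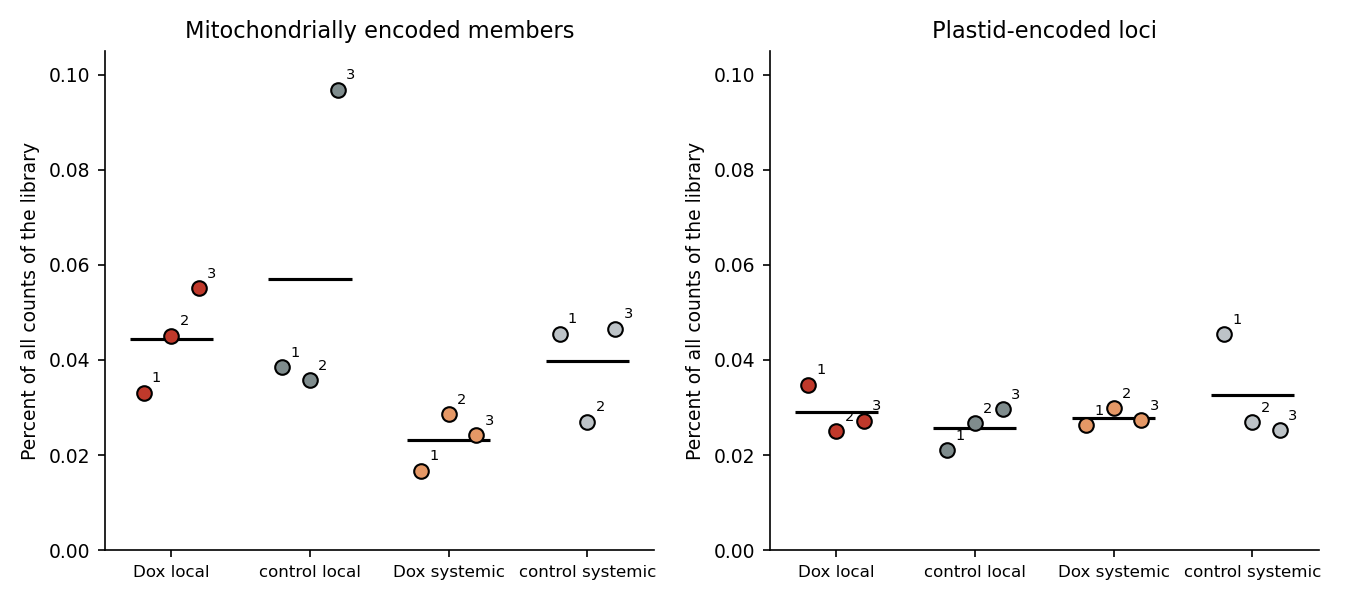
Share of all counts of a library (y axis, percent) on the 79 members (left) and on plastid-encoded loci (right) in the 4 groups, 1 numbered point per library, with the group mean as a line and exact 95% intervals, smaller than the points, at left. Control local library 3 lies at 0.0968% at left, above every other library, while plastid shares run from 0.0210% to 0.0454%.

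Single libraries stood apart in the levels of many members. By counts per library total, without TMM scaling, control local library 3 was highest for 65 of the 79 members. Dox systemic library 1 was lowest for 50 on that scale. Over the 63 members that passed the filter on low counts, the median log2 CPM was 1.41, 1.41 and 1.43 in Dox local libraries, against 1.17, 1.06 and 2.72 in control local libraries. It was -0.28, 0.59 and 0.11 in Dox systemic libraries, against 1.35, 0.45 and 1.45 in control systemic libraries. The 16 members not tested had 30 to 99 counts. They are ATMG00010, ATMG00200, ATMG00250, ATMG00260, ATMG00280, ATMG00290, ATMG00570, ATMG00710, ATMG00990, ATMG01010, ATMG01110, ATMG01260, ATMG01320, ATMG01400, ATMG09740 and ATMG09960. Low depth bears on many others too, since 41 of the 79 members had under 10 counts in Dox systemic library 1 and 7 had none.

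**Figure D3:**
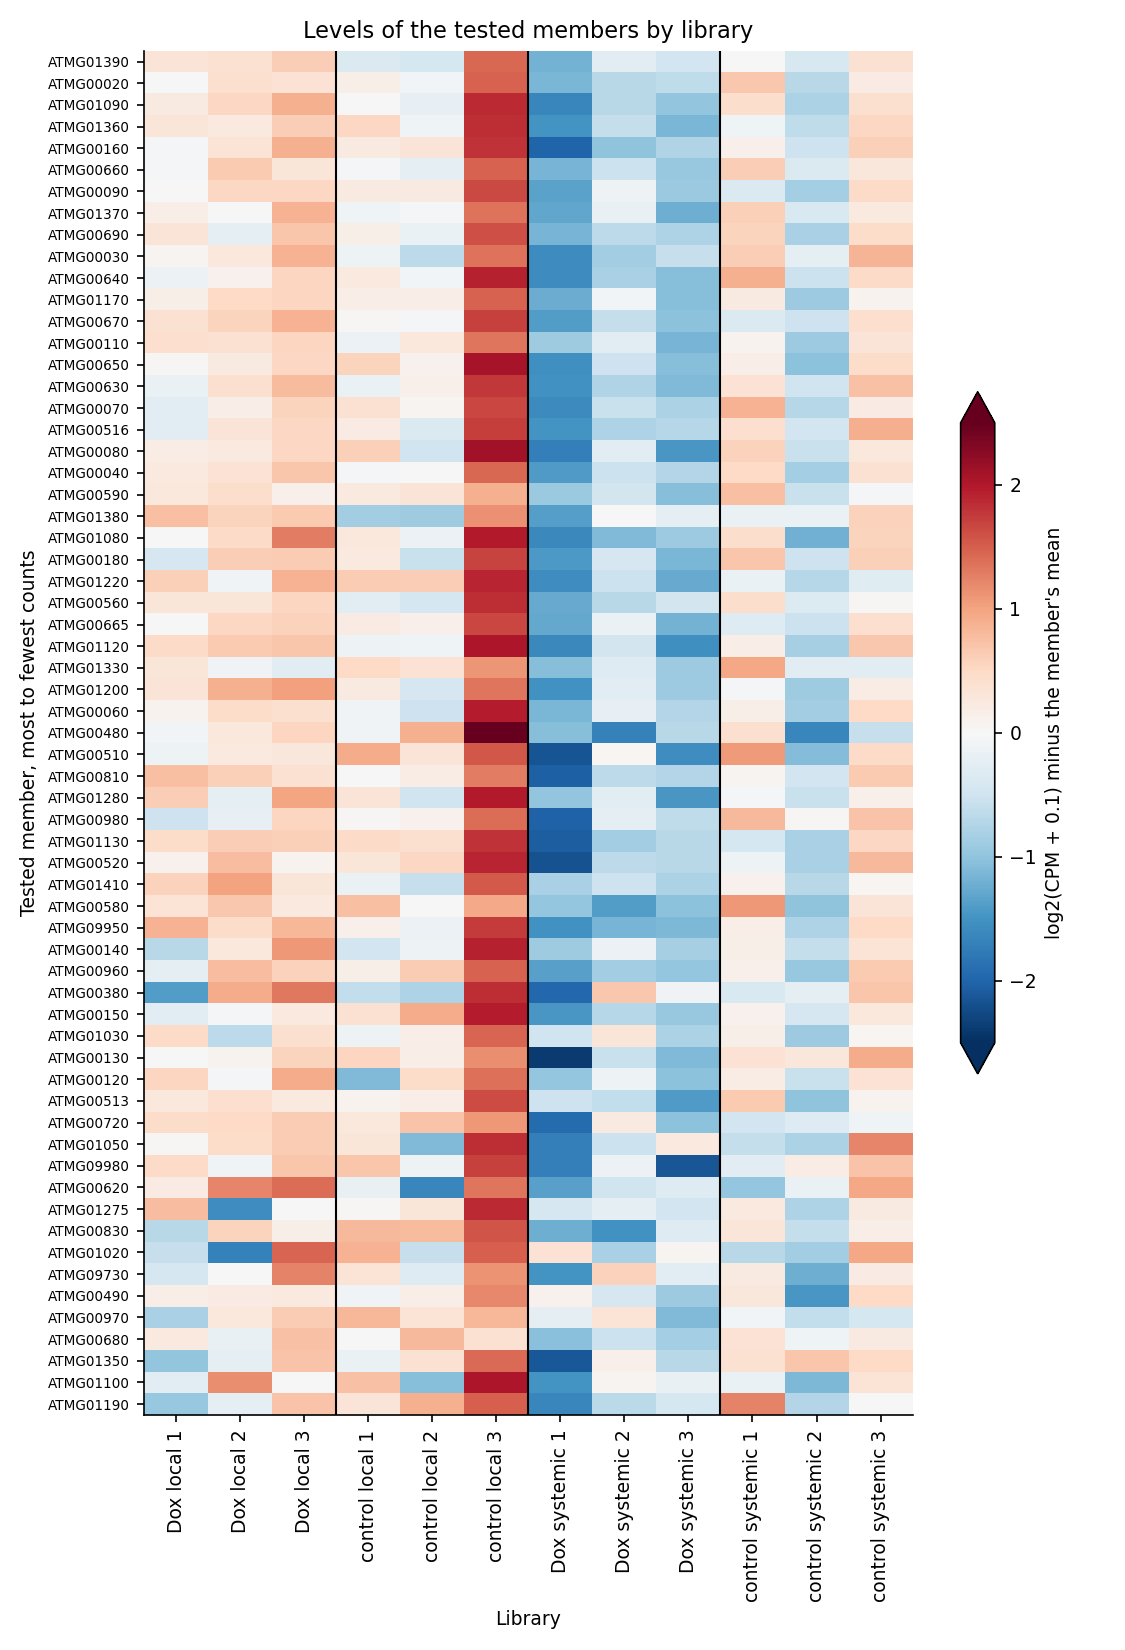
Level of each of the 63 tested members (rows, from most to fewest counts) in each of the 12 libraries (columns, by group), as log2(CPM + 0.1) minus the member's own mean over libraries. Control local library 3 is the red column and Dox systemic library 1 the deepest blue one. By counts per library total, without TMM scaling, they were highest and lowest for 65 and 50 of the 79 members.

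ATMG01090, the most counted member with a description, was at 19.1, 23.6 and 30.6 CPM in Dox local libraries, against 16.4, 14.3 and 60.0 CPM in control local libraries. It was at 5.27, 10.1 and 8.19 CPM in Dox systemic libraries, against 22.2, 9.40 and 21.7 CPM in control systemic libraries. The ranges overlapped at both positions, through control local library 3 and control systemic library 2. ATMG01080, encoding subunit 9 of ATP synthase, was at 2.79, 3.96 and 6.97 CPM in Dox local, against 3.39, 2.55 and 11.4 CPM in control local libraries. In Dox systemic libraries it was at 0.856, 1.26 and 1.45 CPM, against 3.85, 1.18 and 4.19 CPM in control systemic libraries. In ATMG01090 and ATMG01080 all 3 Dox systemic libraries lay below all 3 Dox local libraries, as they did in 11.8% of all genes tested.

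ATMG00480, encoding subunit 8 of ATP synthase, varied most between libraries among members with at least 500 counts. It was at 1.37, 1.74 and 2.14 CPM in Dox local libraries, against 1.34, 2.74 and 20.1 CPM in control local libraries, where the 3 counts behind the levels were 28, 58 and 338. It was at 0.631, 0.374 and 0.853 CPM in Dox systemic libraries, against 1.93, 0.392 and 0.931 CPM in control systemic libraries. A single library, control local 3, thus held 338 of its 627 counts. ATMG01190, subunit 1, was near the limit of detection, at 0.0595, 0.163 and 0.407 CPM in Dox local libraries, against 0.287, 0.472 and 0.771 CPM in control local libraries. In Dox systemic libraries it had 0 (which allows up to 0.135 CPM), 0.0935 and 0.128 CPM, against 0.625, 0.0871 and 0.207 CPM in control systemic libraries. Its chromosome 2 copy AT2G07698 was far higher, at 2.70 to 4.11 CPM in Dox systemic and 2.22 to 7.55 CPM in control systemic libraries.

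The members described as cytochrome or NADH dehydrogenase loci stayed at or below 9.73 CPM in every library. Members without a description, some of which were higher, are not placed by function here and may include other genes of these complexes. ATMG00590, a cytochrome locus by its description only, was at 4.34, 4.89 and 3.92 CPM in Dox local, against 4.25, 4.53 and 6.70 CPM in control local libraries. In Dox systemic libraries it was at 1.85, 2.57 and 1.66 CPM, against 6.09, 2.39 and 3.46 CPM in control systemic libraries. Its control local library 3 exceeded the other libraries by less than that of ATMG01090 did. ATMG00180 of cytochrome c assembly was at 2.20, 4.61 and 4.63 CPM in Dox local, against 3.53, 1.98 and 9.73 CPM in control local libraries. In Dox systemic libraries it was at 1.04, 2.20 and 1.28 CPM, against 4.84, 2.05 and 4.50 CPM in control systemic libraries, with overlap. ATMG00960, its partner in that pathway, stayed at or below 2.55 CPM in every library. ATMG01275 ranged from 0.109 to 2.14 CPM and ATMG00990 from 0.135 to 0.781 CPM. ATMG01320 had no count in any Dox systemic library (which allows up to 0.128 to 0.140 CPM) and at most 0.207 CPM in control systemic libraries.

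Of the ribosomal protein genes, 2 had Dox systemic libraries all below the control systemic ones, as 8.41% of all genes tested had. ATMG00980, encoding S12 of the small subunit where codons are decoded, was at 0.315, 1.31 and 0.981 CPM in Dox systemic libraries, against 2.86, 1.61 and 2.64 CPM in control systemic libraries, without overlap. In local leaves it was at 1.07, 1.36 and 2.34 CPM with Dox, against 1.62, 1.70 and 4.33 CPM in controls, with overlap. ATMG00560 was at 1.08, 1.64 and 1.96 CPM in Dox systemic libraries, against 3.70, 2.13 and 2.79 CPM in control systemic libraries, also without overlap. ATMG00290, S4, had too few counts for a test.

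In systemic leaves, for which no treatment of their own is listed, 62 of the 63 tested members were lower with Dox than in controls, against 50.1% of all 19403 genes tested. None passed the threshold of an adjusted p under 0.05 in edgeR's quasi-likelihood test (Benjamini-Hochberg over all genes; smallest adjusted p = 0.466), and 0% of all genes did. The median log2 fold change of the tested members was -1.02, beside -0.00 over all genes, and the range ran from -2.06 to 0.18. A member passed the filter more easily where 1 group was high. Without the filter, 77 of all 79 members were lower, with a median of -1.01. At least 2-fold lower were 34 of 63, where 4.38% of all genes were. An unadjusted edgeR p under 0.05 in the lower direction was reached by 22 of 63, where 4.79% of all genes reached it. All 3 Dox libraries lay below all 3 control libraries in 16 of 63, where 8.41% of all genes did so. Members share their libraries and so are not independent of each other. DESeq2, which called 0.715% of all genes, and limma-voom called no member here, although DESeq2 gave 4 members no adjusted p. Both also called none in the local comparison, between control positions or for the interaction, where DESeq2 called 0.0722%, 0.294% and 0.00516% of all genes.

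The lowest of these was ATMG00130, at 0.0450, 0.421 and 0.256 CPM in Dox systemic libraries, against 0.885, 0.827 and 1.34 CPM in control systemic libraries. The groups did not overlap, and the edgeR estimate was 4.16-fold lower (log2 -2.06, SE 0.61; adjusted p = 0.466), resting on 1, 9 and 6 counts with Dox. ATMG00640, with more counts, was at 2.30, 3.97 and 3.33 CPM with Dox, against 13.2, 4.83 and 9.87 CPM in controls (log2 -1.53, SE 0.53; edgeR adjusted p = 0.507). ATMG00030 was at 3.24, 5.38 and 6.57 CPM with Dox, against 15.1, 8.44 and 17.8 CPM in controls (log2 -1.44, SE 0.50; edgeR adjusted p = 0.507). In these members every Dox library was below every control library. Of the described genes, S12 (ATMG00980) had a log2 fold change of -1.44 (SE 0.57), subunit 9 of ATP synthase (ATMG01080) had -1.36 (SE 0.64), and the cytochrome c assembly loci ATMG00180 and ATMG00960 had -1.33 (SE 0.59) and -1.32 (SE 0.57). ATMG01090 had -1.18 (SE 0.53). The most counted member, ATMG01390, was closer to 0 at -0.63 (SE 0.45), and ATMG00970 was the only tested member above 0, at 0.18 (SE 0.62).

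In local leaves, where Dox was applied, 58 of the 63 tested members were lower with Dox and 5 higher, but this direction rested on control local library 3. The median log2 fold change was -0.45, beside 0.02 over all genes, of which 47.8% were lower. Without that library, 18 of 64 members were lower and the median was 0.22. Neither fit called a member in edgeR's test (smallest adjusted p = 0.902 with all libraries and 0.365 without that one), and 0% of all genes were called. At least 2-fold lower were 5 of 63, where 2.26% of all genes were. With all libraries, 2 members reached an unadjusted p under 0.05 in the lower direction, where 2.05% of all genes did. All 3 Dox libraries were below all 3 controls in 4 members, where 3.4% of all genes were: ATMG00150, ATMG00510, ATMG00830 and ATMG01330. Their choice followed from their values.

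The extremes in local leaves show both directions. ATMG00480, with its 338 counts in 1 control library, had the lowest estimate at 4.56-fold lower (log2 -2.19, SE 0.87; edgeR adjusted p = 0.902). ATMG00150 was at 0.535, 0.651 and 0.814 CPM in Dox local libraries, against 0.907, 1.37 and 2.91 CPM in control local libraries (log2 -1.35, SE 0.50; edgeR adjusted p = 0.902). At the other end, ATMG00620, an unknown protein, was at 0.595, 1.30 and 1.48 CPM with Dox, against 0.430, 0.0943 and 1.42 CPM in controls (log2 0.82, SE 0.83; edgeR adjusted p = 0.903). ATMG01380 was at 5.47, 4.78 and 5.14 CPM with Dox, against 1.72, 1.70 and 7.24 CPM in controls (log2 0.54, SE 0.55; edgeR adjusted p = 0.904). The 3 Dox libraries of ATMG01380 were close together, while its control libraries spread on both sides of them. ATMG01390 was at 147, 153 and 179.6 CPM in Dox local libraries, against 91.8, 86.7 and 319.6 CPM in control local libraries, with a log2 fold change of -0.05 (SE 0.45).

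Between the leaf positions of the Dox arm the median of the members was farther from 0 than in the other 3 comparisons of groups. All 63 tested members were lower in Dox systemic than in Dox local leaves, where 47.9% of all genes were lower, and 77 of 79 were without the filter. The median log2 fold change was -1.32, beside 0.02 over all genes, and single members ran from -2.26 to -0.45. At least 2-fold lower were 53 of 63, where 8.36% of all genes were. In 49 of 63 members all 3 systemic libraries lay below all 3 local libraries, where 11.8% of all genes did. An unadjusted edgeR p under 0.05 in the lower direction was reached by 40 of 63, where 10.3% of all genes reached it. No member passed the adjusted threshold in edgeR (smallest adjusted p = 0.217), which 0.00515% of all genes did, 1 gene in all.

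A different tool moved some of these over the threshold. DESeq2 called 3.06% of all genes in either direction and 1.96% lower, and 5 of the 63 members, all lower: ATMG09950, ATMG01220, ATMG00810, ATMG00670 and ATMG00160, with DESeq2 adjusted p from 0.0255 to 0.0469. ATMG09950 was at 0.270, 0.374 and 0.384 CPM in Dox systemic libraries, against 1.84, 1.36 and 1.78 CPM in Dox local libraries (edgeR log2 -2.26, SE 0.60; edgeR adjusted p = 0.217). ATMG01220, an unknown protein, was at 0.856, 1.82 and 1.07 CPM in Dox systemic, against 4.10, 2.55 and 5.04 CPM in Dox local libraries (edgeR log2 -1.64, SE 0.45; edgeR adjusted p = 0.217). ATMG00160 was at 2.66, 5.42 and 6.49 CPM in Dox systemic, against 10.6, 13.8 and 20.4 CPM in Dox local libraries (edgeR log2 -1.62, SE 0.49; edgeR adjusted p = 0.220). In these 3 loci the groups were separate, and the lowest local library was above the highest systemic one. ATMG01090 had a log2 fold change of -1.64 (SE 0.54). Among described genes ATMG01080 had -1.94 (SE 0.65), ATMG00960 had -1.71 (SE 0.57), ATMG01280 had -1.45 (SE 0.64), and ATMG00590 had -1.11 (SE 0.36). S12 (ATMG00980), at -0.87 (SE 0.57), overlapped between the positions, and ATMG01275 was nearest to 0 among the described genes at -0.47 (SE 0.75).

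The control arm gave the same direction between positions, again resting on 1 library. Systemic leaves were lower than local leaves in 62 of 63 tested members (50.7% of all genes), with a median log2 fold change of -0.75 beside -0.00 over all genes. No member passed the edgeR threshold (smallest adjusted p = 0.552), nor did any gene (0%). At least 2-fold lower were 13 of 63, where 1.88% of all genes were. An unadjusted edgeR p under 0.05 in the lower direction was reached by 6 members, where 1.85% of all genes reached it, and 5 had systemic libraries all below local ones, where 4.96% of all genes did. Leaving out control local library 3 brought the median to -0.071, with 33 of 64 members lower. ATMG00480 had the lowest value, at 7.42-fold lower (log2 -2.89, SE 0.91; edgeR adjusted p = 0.563), and ATMG01220 came next at -1.60 (SE 0.44; edgeR adjusted p = 0.552). ATMG00030 was the only tested member above 0, at 0.03 (SE 0.49). This comparison shares its control local libraries with the local Dox comparison and its control systemic libraries with the systemic one.

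Whether the Dox difference itself differed between positions was tested as an interaction, local minus systemic. Of the 63 tested members 56 were above 0 and 7 below (48.9% of all genes were below), with a median of 0.56 beside 0.01 over all genes. The shift was not particular to the members. Of 74 tested plastid-encoded loci 66 were above 0, with a median of 0.63, and 7 reached an unadjusted edgeR p under 0.05. No member reached an unadjusted edgeR p under 0.05 in either direction, where 2.02% of all genes did below 0 and 3.18% above it. The smallest unadjusted p was 0.0624, for ATMG00030 (log2 1.44, SE 0.70; edgeR adjusted p = 0.832). A difference of the Dox effect between positions was therefore not detectable for any tested member with these libraries. Leaving out control local library 3 moved the median to 1.36.

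**Figure D4:**
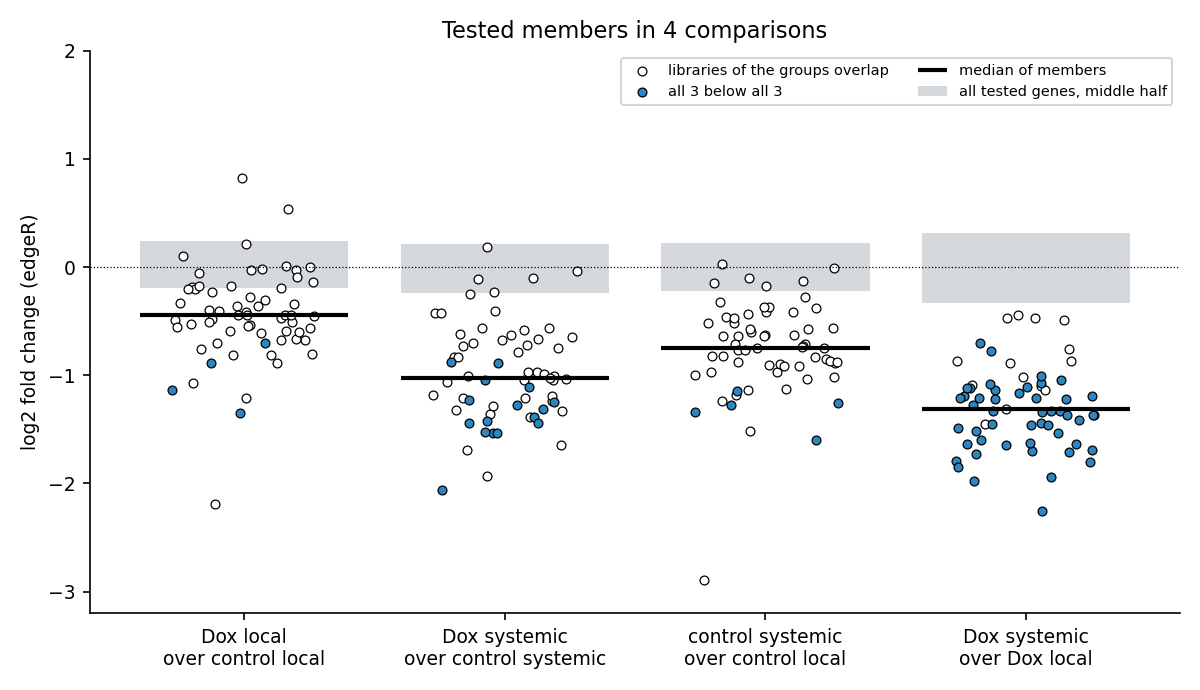
edgeR log2 fold change (y axis) of the 63 tested members in 4 comparisons (x axis), filled where all 3 libraries of the first group lay below all 3 of the second, with the members' median as a line and the quartile range of all 19403 tested genes in grey. Medians are -0.45, -1.02, -0.75 and -1.32 from left to right, and 4, 16, 5 and 49 members are filled.

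Each of the 19 members with at least 1000 counts took a share of the member counts that varied less between libraries, by 1.503- to 2.627-fold, than the 5.79-fold of the total. Of all 79 members, 52 varied less than the total, 18 varied more and 9 had no count in at least 1 library. Members that varied more include ATMG00480 at 12.9-fold and ATMG00130, with few counts, at 10.8-fold. ATMG01390 and ATMG00020 held 42.3% of the member counts, and the 5 most counted loci held 53.2%. These are shares of counts, not corrected for length. ATMG01390 took 35.0%, 32.2% and 31.7% of the member counts in Dox local libraries, against 24.8%, 26.1% and 28.6% in control local libraries, without overlap. It took 35.3%, 35.8% and 38.7% in Dox systemic libraries, against 26.1%, 35.7% and 31.7% in control systemic libraries, with overlap at 1 library. The highest share exceeded the lowest 1.56-fold. ATMG00020 took 10.1%, 11.9% and 9.71% in Dox local libraries, against 12.7%, 12.2% and 10.6% in control local libraries, and 13.1%, 9.78% and 12.6% in Dox systemic libraries, against 15.2%, 10.6% and 10.1% in control systemic libraries. Its groups overlapped in each comparison.

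Other loci held steady or moved within that make-up. ATMG01090 took 3.60%, 3.74% and 3.74% of the member counts in Dox systemic libraries, against 4.93%, 3.78% and 4.49% in control systemic libraries. Those Dox values lay below all controls, by a narrow gap at control library 2. In local leaves it took 4.54%, 4.96% and 5.41% with Dox, against 4.43%, 4.30% and 5.37% in controls, with overlap. ATMG00480 took 0.325%, 0.365% and 0.377% in Dox local libraries, against 0.362%, 0.823% and 1.79% in control local libraries. Control local library 3 thus stood out for ATMG00480 also as a share of the member counts. Role lists drawn up for naming group ATMG00020, ATMG01380 and ATMG01390 as ribosomal RNA, a role the naming source above does not give. Their summed share of the member counts was 39.9% in control local library 3, beside 38.0% and 38.8% in the others of its group. It was 42.3% to 46.4% in Dox local, 46.8% to 52.6% in Dox systemic and 41.9% to 47.4% in control systemic libraries. Dox local and control systemic libraries thus both lay above all control local ones, at ratios of 1.15 and 1.13.

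**Figure D5:**
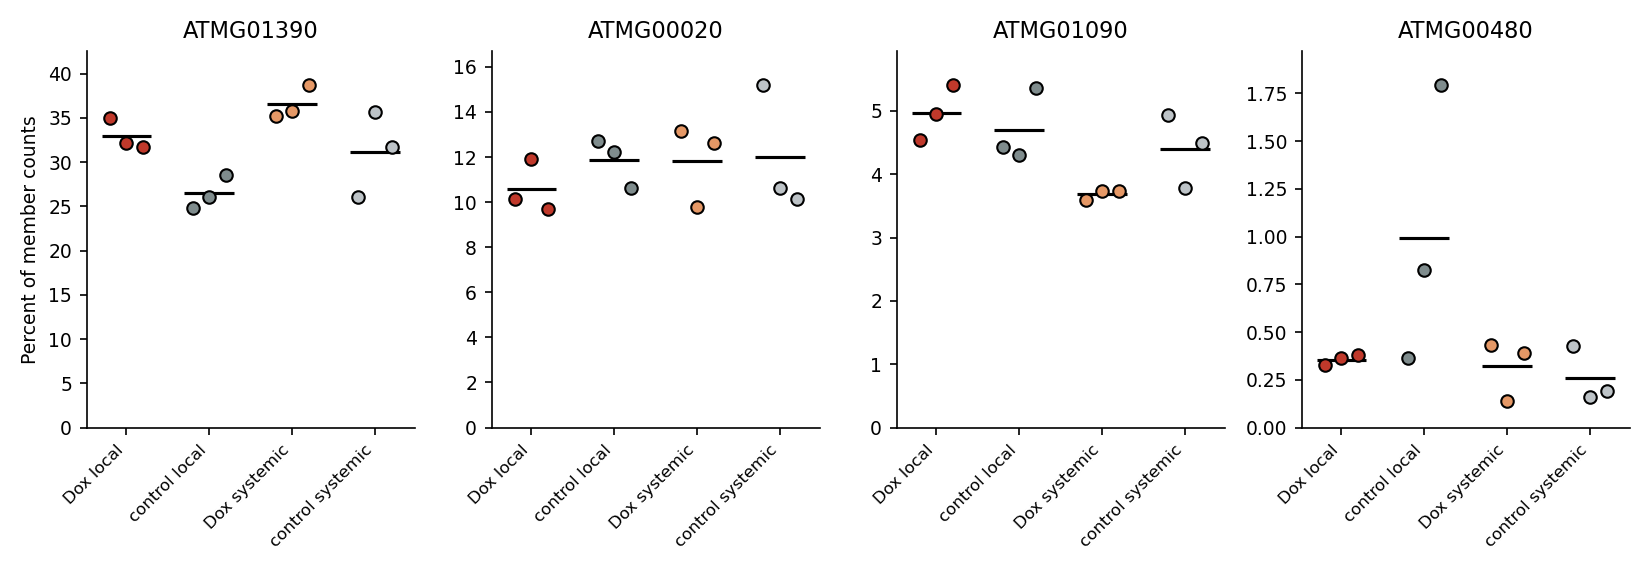
Percent of the member counts of a library (y axis, from 0, scale set per panel) held by ATMG01390, ATMG00020, ATMG01090 and ATMG00480 (ATP synthase subunit 8), 1 point per library in the 4 groups with the group mean as a line. Dox local libraries hold 31.7% to 35.0% on ATMG01390 against 24.8% to 28.6% in control local libraries, and ATMG00480 reaches 1.79% in control local library 3.

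The chromosome 2 copies had medians close to those of the members. Of 46 copies, 19 passed the filter. Their median log2 fold change was -0.45 in Dox local over control local leaves, -0.87 in Dox systemic over control systemic leaves, -0.75 in control systemic over control local leaves and -1.13 in Dox systemic over Dox local leaves, and none passed the edgeR threshold. The summed share of all 46 in Dox local over control local leaves also turned on control local library 3, with a ratio of 0.736 with it and 1.11 without it. AT2G07687, the copy of the cytochrome c oxidase subunit 3 locus, had -1.70 (SE 0.71; edgeR adjusted p = 0.552) in systemic leaves with Dox. AT2G07698, the copy of the ATP synthase subunit 1 locus, had -0.69 (SE 0.51; edgeR adjusted p = 0.739). Tested members with and without a chromosome 2 locus that names them had similar medians in systemic leaves with Dox, -0.92 for 18 members and -1.04 for 45. This split follows the annotation, not the sequence. A member that no chromosome 2 locus names can still have a match there, as 24 of 33 mitochondrial protein genes had. The 2 medians therefore do not separate copied from uncopied loci.

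Nuclear genes for the same respiratory complexes had medians near 0. Of 31 tested nuclear subunits of the respiratory chain and ATP synthase none was called in any comparison, and their median log2 fold change was 0.11 in Dox local over control local leaves, 0.01 in Dox systemic over control systemic leaves and -0.02 in Dox systemic over Dox local leaves. In the last comparison 16 were lower and 15 higher, and CYTC-2, one of the cytochrome c genes, had the lowest value at -1.08 (SE 0.51; edgeR adjusted p = 0.290). In Dox local over control local leaves AT2G47380 had the highest at 0.90 (SE 0.24; edgeR adjusted p = 0.902). Of 19 tested nuclear genes for mitochondrial transcription and RNA processing, 16 were lower in Dox local than in control local leaves (median -0.27), and 14 were higher in Dox systemic than in control systemic leaves (median 0.16), with none called. In Dox systemic over Dox local leaves, where every tested member was lower, 14 of these 19 were higher (median 0.33), led by AT5G04050 at 0.91 (SE 0.37; edgeR adjusted p = 0.252). nMAT1, a splicing factor of mitochondrial introns, was the lowest there at -0.59 (SE 0.37; edgeR adjusted p = 0.401). Plastid-encoded loci, 74 of them tested, had medians of 0.23 in Dox local over control local, -0.34 in Dox systemic over control systemic and -0.38 in Dox systemic over Dox local leaves, with none called.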

How the data were processed

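Leaf RNA was sequenced in 4 groups, and the authors deposited raw read counts per gene, 3 columns per group, with no normalization. Tools named in the submitters' processing notes are HISAT2, featureCounts 1.6.3, DESeq2, FastQC 0.11.9 and Trimmomatic 0.39. The sources used here do not give the genome build, annotation, strand setting or treatment of multiply mapped reads. Columns were taken as libraries because they differed beyond counting noise. The deviations of same-numbered control local and control systemic columns correlated at 0.29, 0.40 and 0.70. Over all pairs of groups, same-numbered columns correlated from -0.29 to 0.70. Deviations among 3 columns of a group depend on each other, and no label pairs the columns. Whether same-numbered columns share plants is therefore not known, and the main tests used no pairing. Members, gene lists and tests were chosen with earlier results of these data known. The rule for naming took the role lists and the 5 most counted of the rest. It added the 3 highest and 3 lowest log2 fold changes per Dox comparison, with up to 4 genes per nuclear list. The text names only part of the loci under this rule, so those named are a selection. Loci outside this rule were chosen after their values were seen.

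Counts were tested with edgeR 4.0.16 (R 4.3.3): TMM, filterByExpr at a minimum count of 10, quasi-likelihood fit of 4 group means over 12 libraries, 8 residual degrees of freedom, Benjamini-Hochberg adjustment over 19403 genes. Levels are CPM on TMM-scaled library sizes. Data were simulated for Dox systemic over control systemic leaves (19284 genes), with the same biological coefficient of variation of 0.32 for every gene. Of 200 genes changed by 2 on the log2 scale, 96.5% were recovered, with 12 false calls. The changed genes were drawn only from well-counted genes, so the recovery does not cover members with few counts. Noise was drawn for each gene alone, so the recovery also leaves out genes that vary together by library or beyond that setting. Smaller changes, the size of most members' values, were not simulated. Alternatives were other normalizations, no filter, DESeq2 1.42.0, limma-voom (limma 3.58.1), a column-number block, and leaving out each library. Copies were aligned with blastn 2.17.0. No sequence is shown, because no table of the files' build was at hand.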

Additional observations from a re-analysis of the deposited data

How the results depend on the processing

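Members were called under 1 alternative only: DESeq2 called 5 in Dox systemic over Dox local leaves, against 0 in edgeR. The cause was not tested. Leaving out 1 library at a time, the members' median log2 fold change ran from -0.76 to 0.22 in Dox local over control local leaves and from -1.28 to -0.83 in Dox systemic over control systemic leaves. It ran from -1.08 to -0.071 in control systemic over control local leaves, from -1.58 to -1.09 in Dox systemic over Dox local leaves, and from 0.29 to 1.36 for the interaction. The values 0.22, -0.071 and 1.36 came from leaving out control local library 3. With limma-voom and all libraries, the median in Dox local over control local leaves was -0.18, with 46 of 63 members lower. There 12 members changed sign against edgeR. Its medians were -0.90 in Dox systemic over control systemic and -0.59 in control systemic over control local leaves. They were -1.35 in Dox systemic over Dox local leaves and 0.76 for the interaction.

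Without ATMG00020, ATMG01380 and ATMG01390 the mean share of the library was 0.0248% in Dox local and 0.0346% in control local leaves (ratio 0.715, or 1.08 without control local library 3), and 0.0117% in Dox systemic and 0.0224% in control systemic leaves (ratio 0.523), since fewer loci are summed. ATMG01090 then took 8.95% of the remaining member counts in Dox local and 7.70% in control local leaves, and 7.33% in Dox systemic and 7.85% in control systemic leaves.

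Scaling by total counts moved the median of all genes to -0.12 in Dox local over control local, 0.11 in Dox systemic over control systemic and 0.31 in Dox systemic over Dox local leaves, and to -0.24 for the interaction. The members' medians were then -0.49, -0.91, -1.04 and 0.38. With the column number as a replicate block the medians were -0.31, -0.95, -1.27 and 0.70, and -0.67 in control systemic over control local leaves, with no member called. That block spans all 4 groups and changed no call. Outside the control pair, no pair of groups had all 3 same-numbered correlations above 0.1. Column 3 of control local, control systemic and Dox systemic leaves nevertheless correlated at 0.43 to 0.70 with each other. Differently numbered columns reached at most 0.38. Column 3 of Dox local leaves correlated with those columns at 0.035 or less. The member share was highest in column 3 of every group but Dox systemic. What these columns share was not tested. A block for the control pair alone was not fitted. Low counts limit the least counted members, 16 of which were not tested.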
